A study of Mus musculus with 15 samples.

Results

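The D-box factors Dbp, Tef, Hlf and Nfil3 were measured by RNA sequencing of punches of the suprachiasmatic nuclei (SCN), the site of the master circadian clock in the hypothalamus. They are the rows named by these 4 symbols among the 24419 genes of the deposited count table, and all 4 were among the 16910 genes with enough counts to be tested. Libraries came from C57BL/6 mice aged 8 to 12 weeks. One genotype, called DKO after double knockout, had lost the nuclear receptors REV-ERB alpha and beta, and the other is called control. The library titles read KO and WT for them. Tissue was taken at circadian time (CT) 16, in the subjective night, or CT 4, in the subjective day. There were 4 DKO and 5 control libraries at CT16 and 3 DKO and 3 control libraries at CT4. Each library pooled 2 to 4 punches. The labels give no promoter, Cre driver or breeding scheme for the deletion, so which cells of a punch lost the receptors is not stated, and they do not say which animals were pooled.

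DBP, TEF and HLF form the PAR bZIP group, basic leucine zipper proteins with a proline and acidic amino acid-rich region that bind D-box elements of DNA as dimers and activate transcription. NFIL3, also called E4BP4, is a related bZIP protein that binds the same elements and represses. In the mammalian clock the PAR bZIP genes, Dbp above all, are driven through E-boxes by CLOCK and BMAL1 and restrained by the PER and CRY proteins, while Nfil3 is controlled through ROR/REV-ERB response elements, where ROR receptors activate and REV-ERBs repress. D-box factors in turn act on clock genes such as Per1, Per2, Per3 and Cry1. Mice without all the PAR bZIP factors are prone to epileptic seizures, linked to low pyridoxal kinase in the brain.

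The 4 genes lie on different chromosomes. In the coordinates of the count table (mm10), Dbp spans chr7:45705247-45710203 on the plus strand with 4 exons and 1678 exonic bases, and Tef spans chr15:81802673-81826863 on the plus strand with 5 distinct exons and 4458 exonic bases. Hlf spans chr11:90336535-90390917 on the minus strand with 4 exons and 5665 exonic bases. Nfil3 spans chr13:52967209-52981039 on the minus strand with 2 exons and 1992 exonic bases. Tef, Hlf and Nfil3 shared no exonic base with another listed gene. The last exon of Dbp (chr7:45709665-45710203, 539 bases or 32.1% of its exonic length) lies wholly within an exon of Sphk2, a sphingosine kinase gene on the opposite strand. The strand setting of the counting is not given in the sources used here, so reads from that exon may be missing from Dbp or shared with Sphk2. Sphk2 stood at 27.7 to 43.5 counts scaled to library size (CPM) over all libraries and moved the other way from Dbp. Its log2 fold change in DKO was -0.45 ± 0.06 at CT16 (edgeR quasi-likelihood test, adjusted p = 0.000135) and -0.22 ± 0.07 at CT4 (adjusted p = 0.133).

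RefSeq promoter windows (GRCm38.p6) were found for all 4 genes, and the 250 bases before each annotated start were searched on both strands for an E-box (CACGTG), a variant E-box (CACGTT), a D-box (TTATGTAA or TTACGTAA) and the core of a ROR/REV-ERB element (TAGGTCA or TGGGTCA). Each window held at most 1 match, so no matches overlapped. Of 32851 windows of the same length, 6.02% held the E-box, 3.85% the variant E-box, 0.931% the D-box and 5.38% the ROR/REV-ERB core. The windows of Nfil3 (chr13:52981040-52981289, minus strand), of the 2 starts of Tef (chr15:81802423-81802672 and chr15:81811164-81811413, plus strand) and of Dbp (chr7:45704997-45705246, plus strand) are printed 5′ to 3′, since Nfil3 and Dbp changed most and the Nfil3 and Tef windows hold the matches, which are in capitals.
Nfil3: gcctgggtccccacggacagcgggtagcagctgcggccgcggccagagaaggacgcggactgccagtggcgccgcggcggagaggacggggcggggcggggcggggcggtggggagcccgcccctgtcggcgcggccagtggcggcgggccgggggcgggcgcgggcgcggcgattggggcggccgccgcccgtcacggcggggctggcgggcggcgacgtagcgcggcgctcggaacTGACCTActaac
Tef start 1: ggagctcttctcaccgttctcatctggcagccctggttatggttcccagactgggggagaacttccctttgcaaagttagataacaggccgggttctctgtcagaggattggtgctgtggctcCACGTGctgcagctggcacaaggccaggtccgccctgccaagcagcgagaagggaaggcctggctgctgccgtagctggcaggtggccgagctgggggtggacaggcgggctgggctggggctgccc
Tef start 2: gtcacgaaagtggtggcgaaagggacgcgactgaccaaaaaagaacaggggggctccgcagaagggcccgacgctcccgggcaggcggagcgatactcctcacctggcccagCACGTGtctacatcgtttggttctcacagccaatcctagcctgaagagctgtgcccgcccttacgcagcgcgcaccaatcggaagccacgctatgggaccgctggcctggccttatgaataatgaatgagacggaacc
Dbp: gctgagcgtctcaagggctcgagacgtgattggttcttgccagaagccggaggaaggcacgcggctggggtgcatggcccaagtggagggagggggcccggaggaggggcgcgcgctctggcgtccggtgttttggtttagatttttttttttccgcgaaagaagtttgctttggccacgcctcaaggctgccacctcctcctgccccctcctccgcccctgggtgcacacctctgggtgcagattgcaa
The Nfil3 window holds the ROR/REV-ERB core on the reverse strand, at -12 to -6 from the start. Both Tef windows hold an E-box, at -127 to -122 and at -138 to -133. The windows of Dbp and Hlf held none of these letters, which says nothing of other parts of the genes. The Nfil3 window was the richest in G and C (81.6%), against 60.4% to 67.2% in the others.

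Total counts ran from 32580803 to 68757624 per library. The members were well covered, with 314 to 2278 counts for Nfil3, 646 to 4511 for Dbp, 3450 to 12369 for Hlf and 9854 to 27482 for Tef in a library, so the counting error of a single value was at most 5.64%. All 15 SCN markers were detected in every library, for example the SCN transcription factor genes Six3 at 78.1 to 153 CPM and Zfhx3 at 74.0 to 163 CPM. The punches differed in other tissue. The myelin score, the mean log2 CPM of 10 markers centred over libraries, was 1.61 in DKO CT16 replicate 4, while the rest of that group had -0.67 to 0.53. The neighbouring nuclei score, over 17 markers of other hypothalamic nuclei, was 0.90 in DKO CT16 replicate 3, against -1.23 to -0.77 in the others of that group. It was 0.63 in control CT4 replicate 1, against -0.90 and -0.41 in the others of its group. Results are therefore also given without these 3 libraries. Control CT16 replicate 5 was kept in that setting, though its neighbouring nuclei score was 0.70, against -0.57 to 0.15 in the others of its group. Its score over 6 ependyma markers was 0.84, against -0.62 to -0.07. The myelin scores of control CT16 also spread, from -0.99 to 0.56. In bulk tissue, fewer cells of a type and less RNA per cell cannot be told apart.

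For each of the 4 genes, every DKO library lay above every control library of the same time. Of all tested genes, 6.97% had no overlap between these groups at CT16 and 25.4% at CT4, in either direction. Dbp, a gene known for a strong circadian rhythm, stood at 60.7, 84.5, 63.5 and 88.1 CPM in the 4 DKO CT16 libraries, against 20.0, 27.2, 19.1, 15.96 and 17.1 CPM in the 5 control CT16 libraries. At CT4 it stood at 61.9, 68.6 and 64.0 CPM in DKO, against 33.6, 33.3 and 38.0 CPM in control. Every DKO library lay above every control library of either time, and the lowest DKO value was 60.7 CPM. The same held for Hlf (lowest DKO 133 CPM, highest control 128 CPM) and Nfil3 (21.2 and 14.5 CPM), but not for Tef (342 and 355 CPM). The share of all tested genes with such a separation was not counted. By mean, the order for Dbp was DKO CT16 (74.2 ± 14.1 CPM, SD, n = 4), DKO CT4 (64.8 ± 3.43 CPM, n = 3), control CT4 (34.9 ± 2.61 CPM, n = 3) and control CT16 (19.9 ± 4.37 CPM, n = 5). The first and second of these did not differ beyond their spread.

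Tef, the most abundant member, varied least. It stood at 399.5, 401, 397 and 342 CPM in DKO CT16, against 306, 306, 316, 282 and 297 CPM in control CT16. At CT4 it stood at 369, 364 and 383 CPM in DKO, against 355, 302 and 329.9 CPM in control. The groups did not overlap at either time, but the gap at CT4 was small, 364 CPM in the lowest DKO library and 355 CPM in the highest control library. By mean, the order was DKO CT16 (385 ± 28.5 CPM), DKO CT4 (372 ± 9.83 CPM), control CT4 (329 ± 26.6 CPM) and control CT16 (301 ± 12.4 CPM), in which the DKO groups overlapped each other, as did the control groups.

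Hlf stood at 207, 207, 142 and 228 CPM in DKO CT16, against 107, 114, 93.1, 91.1 and 100.4 CPM in control CT16. At CT4 it stood at 133, 137 and 146 CPM in DKO, against 98.5, 128 and 110.3 CPM in control. DKO CT16 replicate 3 was the low library of its group, within the range of the DKO CT4 libraries. The means were ordered DKO CT16 (196 ± 37.3 CPM), DKO CT4 (139 ± 6.63 CPM), control CT4 (112 ± 14.95 CPM) and control CT16 (101 ± 9.49 CPM), and the control groups did not differ beyond their spread.

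Nfil3, the repressor, was the least abundant member. It stood at 38.1, 39.1, 22.9 and 38.5 CPM in DKO CT16, against 14.5, 12.6, 14.4, 13.3 and 12.3 CPM in control CT16. At CT4 it stood at 22.9, 23.7 and 21.2 CPM in DKO, against 9.62, 7.99 and 9.11 CPM in control. Each group but the DKO pair was separate from its neighbours, and DKO CT16 replicate 3 again fell among the DKO CT4 libraries. The order was DKO CT16 (34.6 ± 7.84 CPM), DKO CT4 (22.6 ± 1.28 CPM), control CT16 (13.4 ± 0.987 CPM) and control CT4 (8.91 ± 0.831 CPM), so that, unlike the 3 activators, Nfil3 had its lowest mean in control at CT4. Of those activators, only Dbp was separate between the control times, while Tef and Hlf overlapped.

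**Figure D1:**
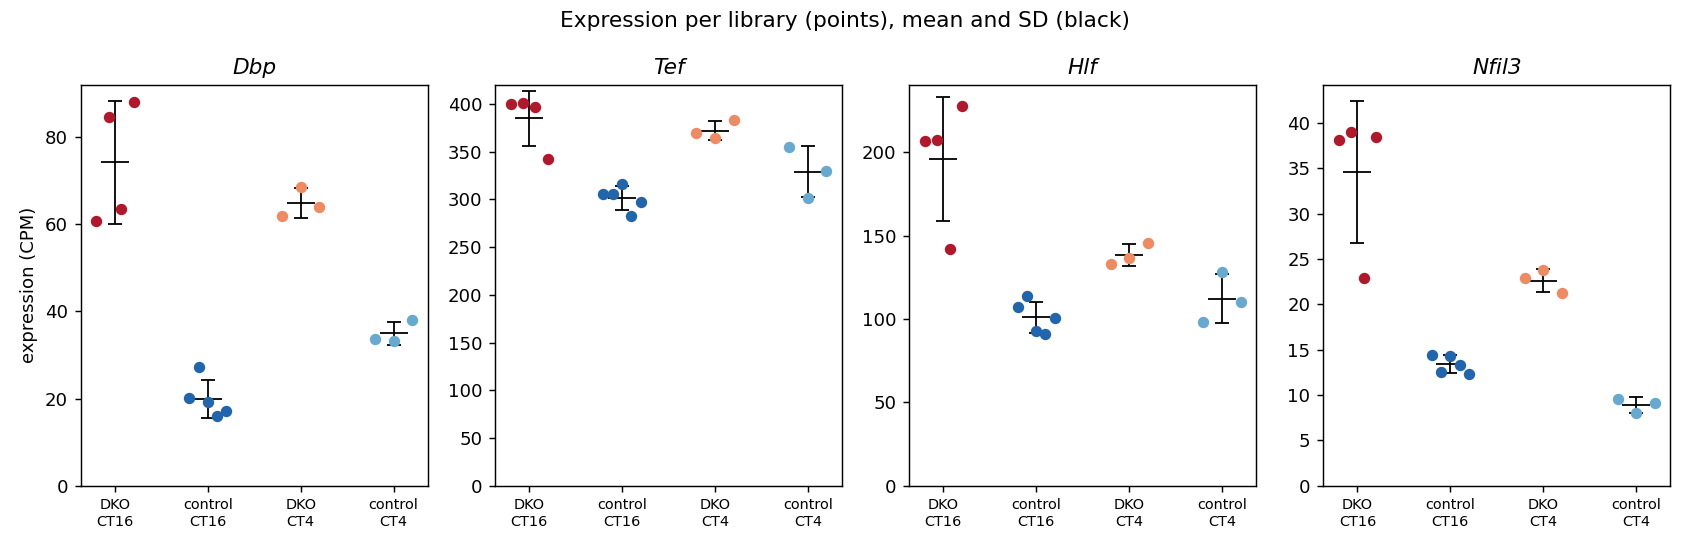
Expression of Dbp, Tef, Hlf and Nfil3 in CPM (y axis, linear from 0) in each library, by group; points are libraries and black marks are the mean and SD of the group. Dbp sits at 60.7 CPM or more in all DKO libraries and at 38.0 CPM or less in all control libraries, and DKO CT16 replicate 3 is the low point for Hlf and Nfil3.

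DKO and control were first compared at CT16, when Dbp is at a low level in control. All 4 members rose in DKO, and in none did the groups overlap. Among all 16910 tested genes, 2.83% were called higher in this comparison, 4.66% in either direction, and 6.97% had no overlap between the groups in either direction. Dbp was 3.73-fold higher (95% confidence interval 2.97 to 4.68), a log2 fold change of 1.90 ± 0.15 (SE, edgeR quasi-likelihood test with Benjamini-Hochberg adjustment over all genes, adjusted p = 9.32e-06). Nfil3 was 2.58-fold higher (2.13 to 3.14, adjusted p = 1.36e-05) and Hlf 1.94-fold higher (1.62 to 2.32, adjusted p = 0.000323). Tef was only 1.28-fold higher (1.17 to 1.39, adjusted p = 0.00117). The median log2 fold change was 1.17 over the 4 members and 0.002 over all tested genes. Without the 3 libraries that stand apart in tissue markers, the log2 fold changes were 1.87 for Dbp, 1.53 for Nfil3, 1.04 for Hlf and 0.41 for Tef, and all 4 were still called.

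At CT4 the same comparison in the subjective day gave smaller differences for the activators. Nfil3 rose 2.54-fold (1.99 to 3.25, edgeR adjusted p = 0.00156) and Dbp 1.86-fold (1.41 to 2.44, adjusted p = 0.0361). Hlf was 1.23-fold higher (0.988 to 1.54, adjusted p = 0.358) and Tef 1.13-fold higher (1.02 to 1.26, adjusted p = 0.224), neither of which passed. No overlap between the groups was seen in 4 of 4 members, but 25.4% of all tested genes also had none with 3 libraries a group, and 0.574% of genes were called higher and 0.71% lower (1.28% in all). That background, 217 genes, was 16 to 40 without DKO CT4 replicate 1, 2 or 3 or control CT4 replicate 2 or 3, and 328 without DKO CT16 replicate 3. The call of Dbp was lost in 10 of 25 other settings at nearly the same size (0.85 to 0.96 on the log2 scale), and without the 3 libraries it stood at 0.86 (adjusted p = 0.0626). Under that setting Tef passed (0.24, adjusted p = 0.0359). Leaving out any single CT4 library, or control CT16 replicate 1 or 3, ended the call of Dbp, while Nfil3 kept its call in 25 of 25.

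Tissue markers moved with genotype at CT4. The 15 SCN markers had a median log2 difference of -0.95, and their summed level was 1000 to 1047 CPM in DKO, against 1271 to 1398 CPM in control. The 17 neighbouring nuclei markers had a median of 0.82, with a summed level of 831 to 966 CPM in DKO, against 439 to 819 CPM in control. No gene of either list was called, and 1 of the neighbouring nuclei markers was at 0 counts in control CT4 replicate 2. With the myelin and neighbouring nuclei scores as covariates, the CT4 log2 fold changes were 0.89 for Dbp, 1.53 for Nfil3, 0.52 for Hlf (adjusted p = 0.0182) and 0.15 for Tef. At CT16 the 10 myelin markers had a median of 0.72, none called, with a summed level of 3878 to 19850 CPM in DKO, against 2930 to 9656 CPM in control. The 15 SCN markers had a median of -0.02, but 2 of them, Rgs16 and Rasl11b, were called higher. The SCN list thus holds genes that moved apart from its median. Of 8 astrocyte markers 2 were called higher and 1 lower, and of 6 ependyma markers 1 higher, where 4.66% of all genes were called. With the same covariates the CT16 log2 fold changes were 1.71 for Dbp, 1.23 for Nfil3, 0.78 for Hlf and 0.38 for Tef, and all were called.

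The change from day to night differed in direction between Dbp and Nfil3 in control mice. At CT16 against CT4 in control, Dbp fell to 19.9 CPM, against 34.9 CPM at CT4 (log2 fold change -0.81 ± 0.16, edgeR adjusted p = 0.0135), and Nfil3 rose to 13.4 CPM, against 8.91 CPM at CT4 (0.59 ± 0.15, adjusted p = 0.0331). Neither gene overlapped between the times. Tef (-0.13 ± 0.06, adjusted p = 0.264) and Hlf (-0.15 ± 0.13, adjusted p = 0.556) did not pass. Of all tested genes, 2.08% were called lower and 2.13% higher (4.21% in all), and 15.8% had no overlap. The SCN markers had a median of -0.42, with 3 of 15 lower (Rgs16, Rasl11b and Six6), and the neighbouring nuclei markers 0.21. The call of Dbp was lost without control CT4 replicate 2 or 3 (-0.84 and -0.75). That of Nfil3 was lost in 7 of 25 other settings, including each that left out 1 control CT4 library. Without the 3 libraries set apart by tissue markers both were called (Dbp -0.84, adjusted p = 0.0456, and Nfil3 0.65, adjusted p = 0.00164).

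In DKO mice, Dbp at CT16 stood at 74.2 CPM, against 64.8 CPM at CT4, a log2 difference of 0.19 with a 95% interval of -0.17 to 0.56 (adjusted p = 0.569, edgeR). Nfil3 rose at CT16 by 0.61 ± 0.15 (adjusted p = 0.0439), where 1.29% of all genes were called higher and 1.8% in either direction. The SCN markers had a median of 0.94 in this comparison and the neighbouring nuclei markers -0.68, with 0 of 15 and 1 of 17 called, and the part of the SCN markers in the result was not tested. The Nfil3 groups overlapped through DKO CT16 replicate 3. The call of Nfil3 was lost in 18 of 25 other settings, including the leaving out of any single library but that one. Hlf stood at 0.50 ± 0.14 (adjusted p = 0.0804) and passed without DKO CT16 replicate 3 (0.63, adjusted p = 0.00131). Tef stood at 0.05 (-0.09 to 0.19). No overlap between the times was seen in 0 of 4 members, against 14.7% of all tested genes. Without the 3 libraries, Nfil3 stood at 0.77 (adjusted p = 0.000351) and Hlf at 0.58 (adjusted p = 0.00143), and with the marker scores as covariates at 0.34 and 0.21, neither called.

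Whether the genotype difference itself changed with time was tested by the interaction, the log2 fold change of DKO against control at CT16 minus that at CT4. It was 1.01 (95% interval 0.49 to 1.52) for Dbp and 0.65 (0.24 to 1.07) for Hlf, with unadjusted p of 0.000773 and 0.0039 in edgeR. Adjusted over all genes, neither passed (0.113 and 0.159), nor did Tef (0.17, -0.02 to 0.37, adjusted p = 0.364). Nfil3 had an interaction of 0.02 (-0.42 to 0.47, adjusted p = 0.968), an interval that leaves room for a difference of either sign. Only 0.0118% of all genes were called in this contrast (2 of 16910), and 2557 had an unadjusted p under 0.05. That count depended on 1 library, with 298 genes called without DKO CT16 replicate 3 and 1 to 12 when any other single library was left out. The tissue markers moved in this contrast too, with a median of 1.61 for the 15 SCN markers and -0.74 for the 17 neighbouring nuclei markers, none called, and the part of the SCN markers in the result was not tested. DESeq2 and limma voom called the interaction of Dbp (adjusted p = 0.00192 and 0.0125) and of Hlf (adjusted p = 0.0274 and 0.0337), where they called 360 and 422 of all tested genes. With the marker scores as covariates the interaction was 0.82 for Dbp (adjusted p = 0.0140), 0.27 for Hlf (adjusted p = 0.46) and -0.31 for Nfil3 (adjusted p = 0.623). Without the 3 libraries it was 0.82 for Hlf (adjusted p = 0.00501) and 1.00 for Dbp (adjusted p = 0.101).

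**Figure D2:**
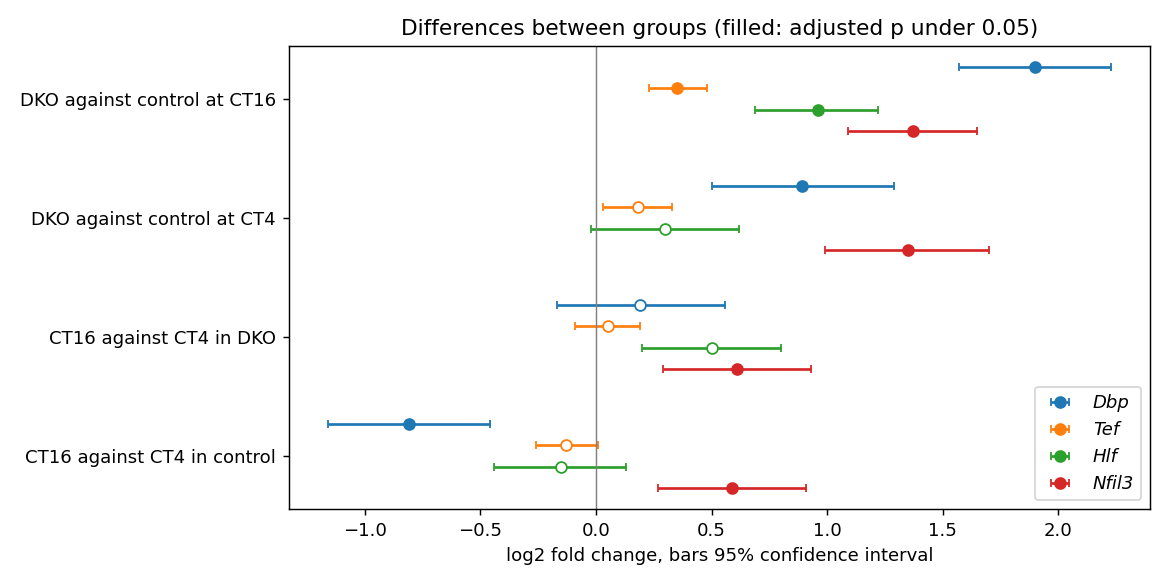
Log2 fold changes (x axis) of the 4 members in each comparison between groups, with 95% confidence intervals as bars; filled points passed an adjusted p of 0.05. All 4 points are filled for DKO against control at CT16, where Dbp stands at 1.90 and Tef at 0.35, and Dbp in control at CT16 against CT4 is the lone point called below 0.

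Levels of different genes were compared per length, as CPM per kilobase of exon. Tef was the most abundant in every library (63.4 to 89.9 CPM per kb). In DKO CT16, Dbp stood at 44.2 ± 8.39 and Hlf at 34.6 ± 6.58 CPM per kb (SD, n = 4), against 11.8 ± 2.61 and 17.8 ± 1.67 in control CT16 (n = 5). The ranges of Dbp and Hlf overlapped in both groups, 36.2 to 52.5 and 25.1 to 40.2 in DKO CT16, and 9.51 to 16.2 and 16.1 to 20.1 in control CT16. Within a library, Hlf stood above Dbp in every control CT16 library. Dbp stood above Hlf in every DKO CT16 library but replicate 1 (36.2 against 36.5). At CT4, Dbp stood at 38.6 ± 2.05 and Hlf at 24.5 ± 1.17 CPM per kb in DKO, against 20.8 ± 1.56 and 19.8 ± 2.64 in control. Nfil3 was at the bottom in all groups, from 4.01 CPM per kb in control CT4 to 19.6 in DKO CT16. If no read of the exon shared with Sphk2 was counted, the values of Dbp per kb would be 1.47 times as high, a calculation added after seeing the data. Dbp would then stand at 65.1 ± 12.4 CPM per kb in DKO CT16 and 17.4 ± 3.84 in control CT16, so that Dbp and Hlf would be about level in control CT16, and in DKO CT16 replicate 4 it would pass Tef (77.3 against 76.8).

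Summed per length, the 3 activators reached 152 to 177 CPM per kb in DKO CT16, against 88.9 to 105 in control CT16. At CT4 they reached 143 to 149.8 CPM per kb in DKO, against 110.1 to 117 in control. The groups did not overlap at either time. Most of the makeup shift was between Dbp and Tef. Dbp made up 22.3% to 31.0% of the sum in DKO CT16, against 10.7% to 15.4% in control CT16, while Tef made up 45.3% to 58.6% in DKO and 65.4% to 71.8% in control. The share of Hlf was 16.5% to 23.7% in DKO CT16 and 16.7% to 19.2% in control CT16, which overlap.

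**Figure D3:**
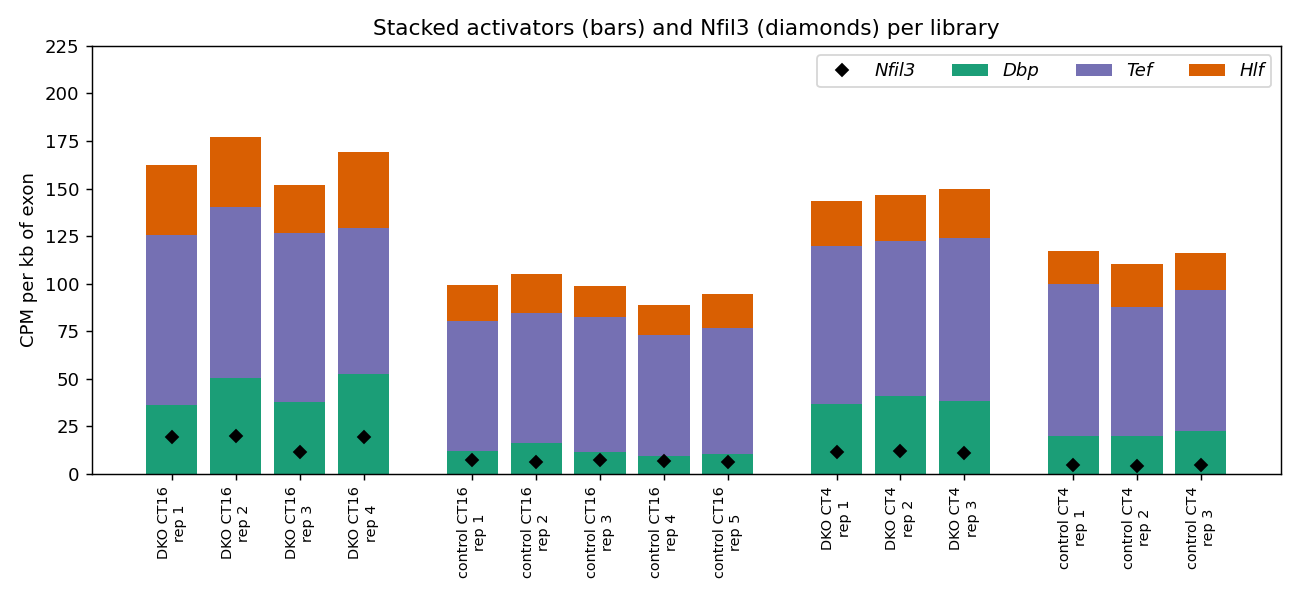
Level per length (y axis, CPM per kb of exon, linear from 0) in each library, with Dbp, Tef and Hlf stacked as bars and Nfil3 as diamonds, in 4 blocks by group. The stacks of the 4 DKO CT16 libraries end at 152 to 177 and those of the 5 control CT16 libraries at 88.9 to 105, and the Dbp segment differs most.

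Because activators and repressor rose together, their ratio within a library was described as the log2 of the summed activators over Nfil3, each per kb. It was 3.09, 3.17, 3.73 and 3.13 in DKO CT16, against 3.78, 4.06, 3.78, 3.74 and 3.93 in control CT16. At CT4 it was 3.64, 3.62 and 3.81 in DKO, against 4.599, 4.78 and 4.67 in control. At CT4 the ratio was lower in DKO with no overlap. At CT16 DKO CT16 replicate 3, low in Nfil3, came just under the lowest control library. Per unshared length of Dbp that library had 3.885, within the control CT16 range of 3.81 to 4.16, so the groups then overlapped, while at CT4 they did not (3.80 to 3.98 in DKO, against 4.71 to 4.897 in control). Single activators differed from each other. Tef over Nfil3 was 1.99 to 2.95 in DKO CT16, against 3.24 to 3.44 in control CT16. Dbp over Nfil3 was 0.92 to 1.72 in DKO CT16 and 0.51 to 1.36 in control CT16, which overlap, and at CT4 it was 1.68 to 1.84 in DKO, against 2.05 to 2.31 in control. Hlf over Nfil3 was 0.90 to 1.13 in DKO CT16, against 1.19 to 1.67 in control CT16, and 1.02 to 1.27 in DKO CT4, against 1.85 to 2.50 in control CT4. These ratios are built from the members and are given with no test.

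**Figure D4:**
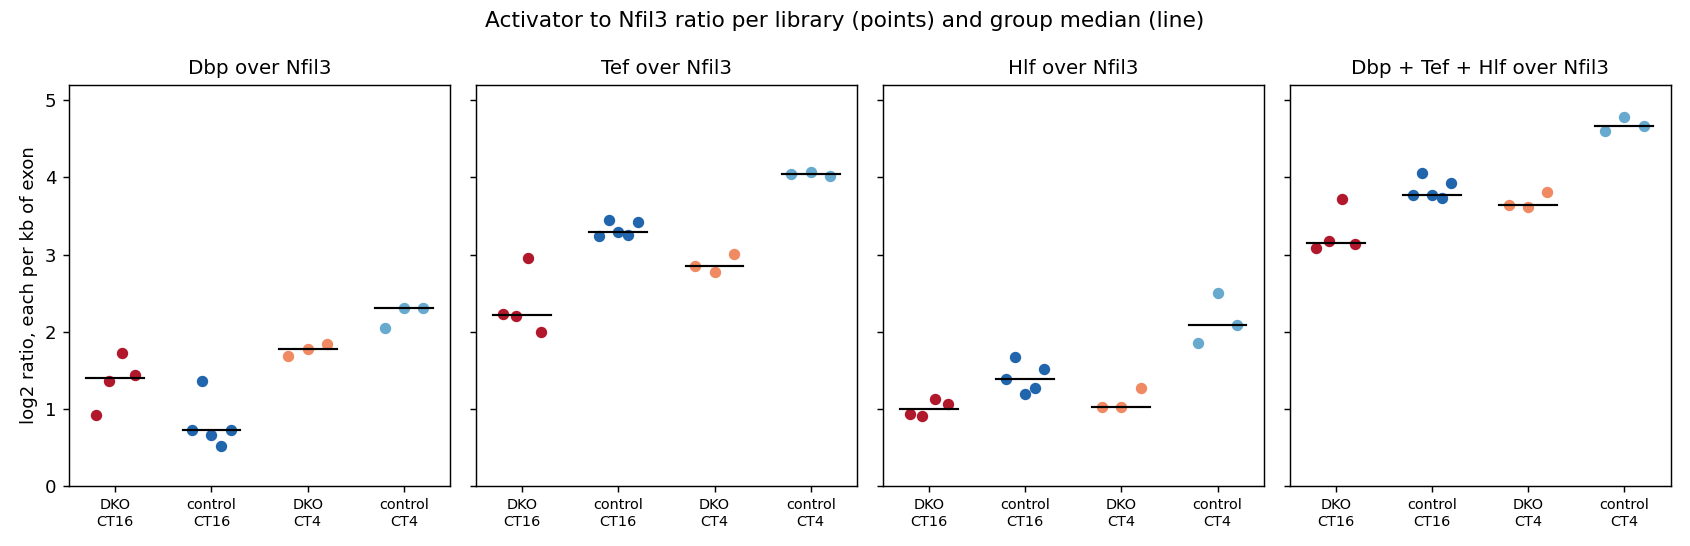
Log2 ratio of each activator, and of the 3 summed, to Nfil3 (y axis, each gene per kb of exon) in every library, by group; lines are group medians. The summed ratio is 4.599 to 4.78 in control CT4, above all other libraries, and the Dbp panel is the one in which the DKO CT16 and control CT16 points overlap.

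Around the D-box factors stand the genes that drive them and those they act on, counted here in lists that share members such as Cry1 and Nr1d1. Of 8 clock genes that hold D-boxes, 4 rose in DKO at CT16 and none fell, where 2.83% of all genes were called higher and 1.83% lower. Nr1d2 stood at 233 ± 25.8 CPM in DKO CT16 and 111 ± 8.43 CPM in control CT16 (SD, n = 4 and 5), and Nr1d1 at 319 ± 62.5 CPM in DKO and 144 ± 5.50 CPM in control. Both encode the deleted receptors, and the counts sum all exons, so they do not check the genotype. Per3 and Cry1 were the others that rose, while Per1, Per2, Rora and Rorb, at -0.02 to 0.37, did not pass. At CT4, Nr1d2, Cry1 and Per3 rose, and Rora (-0.75 ± 0.31, edgeR adjusted p = 0.281) and Rorb (-0.95 ± 0.27, adjusted p = 0.131), did not pass; Rorb is also on the SCN marker list. The median of the list was 0.48 at CT16 and 0.02 at CT4. Between times, Per1 (0.72 ± 0.12, adjusted p = 0.00665) and Nr1d2 (0.45 ± 0.08, adjusted p = 0.00928) rose at CT16 in DKO, and Nr1d1 fell in control (-0.75 ± 0.13, adjusted p = 0.00589). No gene of any of these lists passed the interaction test.

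Of 11 regulators of E-boxes, through which Dbp, Tef and Hlf are driven, 9 rose in DKO at CT16 and 5 at CT4, and none fell, against 2.83% and 0.574% of all genes called higher. Over all the lists, 6 genes were called at CT4, and 1 or 2 were without DKO CT4 replicate 1, 2 or 3 or control CT4 replicate 2 or 3. The activator partner gene Npas2 stood at 66.3 ± 14.2 CPM in DKO CT16 and 17.5 ± 1.84 CPM in control CT16, and the repressor genes Cry2 and Ciart at 175 ± 11.6 and 31.4 ± 5.47 CPM in DKO, against 120 ± 4.54 and 11.1 ± 1.96 CPM in control. The list thus holds both activators and repressors that rose. Per1 and Per2 were those not called at CT16. Between times, Npas2 rose at CT16 in DKO (0.71 ± 0.16, edgeR adjusted p = 0.038), as did Per1, and Bhlhe40 fell in control (-0.41 ± 0.09, adjusted p = 0.0154). Nfil3 is controlled through ROR/REV-ERB elements, and 5 clock genes besides it that hold such elements were counted. Of these, Npas2, Arntl, Cry1 and Clock rose at CT16, and Npas2 and Cry1 at CT4, all of them already counted on the E-box list. Clock rose only 1.16-fold at CT16 (edgeR adjusted p = 0.0345), with groups that overlapped. Of the genes of the 5 receptors that bind ROR/REV-ERB elements, Nr1d1 and Nr1d2 rose in counts at CT16 and Nr1d2 at CT4. At CT4, Nr1d1 stood at -0.02 ± 0.14 (edgeR adjusted p = 0.975). Both encode the deleted receptors, so these counts, which sum all exons, do not show a rise in working receptor. Rora and Rorb did not pass at either time.

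Of 7 metabolic genes known from mouse liver, kidney or brain to depend on PAR bZIP factors, 6 were tested and none was called in any comparison, which says little of so few genes where 1.28% to 4.66% of all genes were called in the comparisons between groups. Pdxk, which encodes pyridoxal kinase, stood at 454 ± 53.3 CPM in DKO CT16 and 466 ± 33.1 CPM in control CT16 (log2 fold change -0.04 ± 0.07, edgeR adjusted p = 0.812), and at 386 ± 19.7 CPM in DKO CT4 and 387 ± 17.5 CPM in control CT4. Por, the cytochrome P450 reductase gene, stood at 0.15 ± 0.05 at CT16 (adjusted p = 0.0862), and Alas1, a haem synthesis enzyme gene, at 0.00 ± 0.05. Cyp2b10 was the gene too low to test. Of 6 related bZIP genes of the C/EBP group, 5 were tested and none was called between genotypes at either time. Cebpd (1.44 ± 0.23, adjusted p = 0.00276) and Cebpb (0.95 ± 0.22, adjusted p = 0.0218) rose in control at CT16 against CT4. In DKO they stood at 0.68 ± 0.23 and -0.12 ± 0.22 in that comparison, and their interactions did not pass (-0.76 ± 0.32, adjusted p = 0.278, and -1.07 ± 0.31, adjusted p = 0.148).

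**Figure D5:**
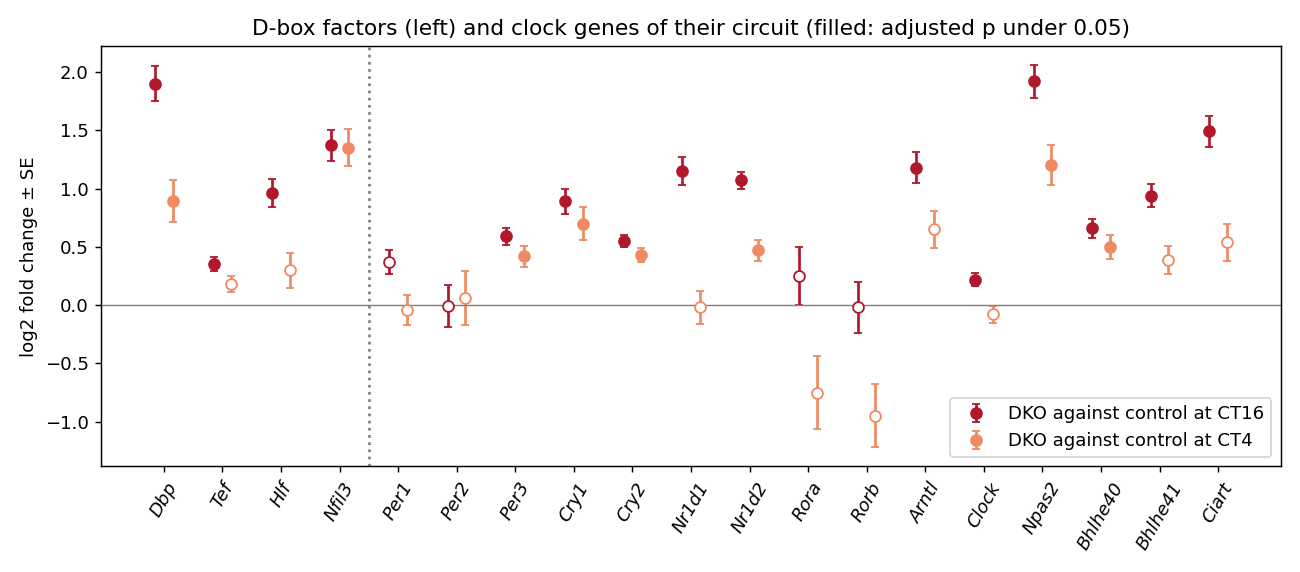
Log2 fold change ± SE (y axis) of DKO against control at CT16 and CT4 for the 4 D-box factors, left of the dotted line, and clock genes that drive them or hold D-boxes; filled points passed an adjusted p of 0.05. Npas2 at 1.92 and Dbp at 1.90 top the CT16 values, while Per2 lies near 0 at both times.

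Likeness of pattern was measured as the root mean square difference between log2 CPM profiles over the 15 libraries, each centred on its own mean, among the 13547 tested genes whose log2 CPM averaged 1 or more. The libraries share group, depth and tissue makeup, so this is a description of these profiles. The genes most like Dbp were Apln (0.31), Ppp1r1b (0.31), Lsp1 (0.31), Plat (0.32) and the clock repressor gene Ciart (0.32), against a spread of Dbp itself of 0.87 (SD). Those most like Hlf were Nr1d2 (0.15), Slc20a2 (0.16), Pdzd2 (0.16), Bhlhe41 (0.17) and C230037L18Rik (0.18), with an SD of Hlf of 0.43. Those most like Nfil3 were Hebp2 (0.29), Npas2 (0.30), A330076C08Rik (0.30), E130012A19Rik (0.33) and Stac (0.35), with an SD of Nfil3 of 0.76. Tef varied little (SD 0.17), and its nearest genes were Camkk1, Zbtb18, Laptm4b, Fam49a and Ipo5 (0.09 to 0.10). Among the members, Hlf ranked 57 (0.53), Nfil3 ranked 105 (0.58) and Tef ranked 504 (0.70) in likeness to Dbp. Hlf ranked only 11553 in likeness to Tef, though their difference was smaller (0.32). The measure depends on how much a gene varies, so ranks for different members cannot be set against each other.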

How the data were processed

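The authors deposited whole-number read counts per gene and library, not normalized; the table also lists each gene's exonic length, per the file headers. STAR, featureCounts, DESeq2 and build mm10 are named in the submitters' processing notes; the sources used here give no version, annotation or strand setting. In R 4.3.3 with edgeR 4.0.16, genes kept by filterByExpr (16910) were scaled by TMM and 1 model with 4 group means was fitted to 15 libraries (11 residual degrees of freedom). Each contrast was tested by the robust quasi-likelihood test, with Benjamini-Hochberg adjustment over all tested genes and calls at an adjusted p under 0.05. A standard error is the size of the log2 fold change divided by the root of F, and 95% intervals use t with the residual degrees of freedom. CPM were computed with TMM-scaled sizes. A prior count of 2 was added for the log2 CPM of marker scores, profiles and deviations, but not for the log2 ratios between members. Replicates differed by more than sampling noise (chi-square per degree of freedom 6.57 to 124), and p-values measure the spread between pools of punches. The steps were also run on simulated counts. These had the same dispersion for all genes and no differences in tissue between libraries, so they do not stand for the spread seen here.

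The members, the gene lists, the set-aside libraries and the settings were chosen with earlier results of these data known. Genes named are the members, up to 3 of smallest p per list and comparison, and the 5 most alike per member; other list genes named in the text were picked after their values were seen, and 1 listed gene is counted but its values are not reported here. The alternatives were DESeq2 1.42.0, limma 3.58.1 (voom with quality weights), upper quartile or RLE factors, no filter beyond 1 count, at least 1 CPM in 3 libraries, only the groups compared, the replicate number as a block, myelin and neighbouring nuclei scores as covariates, without 3 libraries that stand apart, and each library left out in turn. Figures were drawn with matplotlib 3.10.9.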

Additional observations from a re-analysis of the deposited data

Results flagged for a closer look

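Within groups of 4 or 5 libraries, 8 sets of member values were searched for a single library far from the others, and 2 were found; chance alone marks about 5% of such sets. Nfil3 stood at 22.9 CPM in DKO CT16 replicate 3, against 38.1 to 39.1 CPM in the other DKO CT16 libraries. For the neighbouring nuclei markers that library scored 0.90, while its group otherwise had -1.23 to -0.77. It also had the lowest SCN marker score of its group (-0.52, against 0.07 to 0.72) and the highest ependyma score (0.86, against -0.60 to 0.00). Their part in the low Nfil3 value was not tested. Tef stood at 342 CPM in DKO CT16 replicate 4, against 397 to 401 CPM in the others. That library had a myelin score of 1.61, against -0.67 to 0.53, and its part in the Tef value was not tested. Both values still lay above all control CT16 libraries.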

How the results depend on the processing

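At CT16, all 4 members stayed called in DKO against control under all 25 alternatives (log2 fold change 1.71 to 2.04 for Dbp, 0.33 to 0.41 for Tef, 0.78 to 1.08 for Hlf and 1.23 to 1.53 for Nfil3), and at CT4 Nfil3 did (1.28 to 1.53). With 1 library left out, the log2 values at CT4 were 0.85 to 0.96 for Dbp, 0.12 to 0.24 for Tef and 0.22 to 0.41 for Hlf. For CT16 against CT4 in control they were -0.95 to -0.74 for Dbp and 0.52 to 0.65 for Nfil3. In DKO they were 0.42 to 0.63 for Hlf and 0.55 to 0.77 for Nfil3. For the interaction they were 0.91 to 1.15 for Dbp, 0.54 to 0.78 for Hlf and -0.04 to 0.18 for Nfil3, whose sign turned in 8 of 24 alternatives. Members called were then 1 to 2 at CT4, 0 to 2 between times in control, 0 to 2 in DKO and 0 to 2 for the interaction, and listed pathway genes called were 1 to 7, 2 to 6, 1 to 10 and 0 to 5, and 10 to 12 for genotype at CT16.

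Upper quartile factors gave 0.59 for Nfil3 between times in DKO, and only the groups compared gave 0.61, neither called, so that 0 of 4 members were called there. DESeq2 and voom called 2 members between times in DKO, adding Hlf (0.5 and 0.51), and 2 for the interaction, Dbp (1 and 1.13) and Hlf (0.65 and 0.66). Calls over all genes rose too, to 874 and 1381 in DKO and 360 and 422 for the interaction, against 304 and 2. They were 584 and 849 at CT4, against 217, and 1317 and 1856 between times in control, against 712. Pathway genes called were 11 and 11 at CT4, 7 and 7 between times in control, 8 and 11 in DKO and 6 and 5 for the interaction. With only the groups compared they were 10 at CT4 and 1 between times in DKO, where 828 and 47 of all genes were called.

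Deviations from the group mean correlated weakly between same-numbered libraries (-0.184 to 0.138). Libraries of different number were not compared, so whether replicate numbers pair the libraries was not tested. With the replicate block, calls were lost for Dbp at CT4 (0.89), for Nfil3 between times in control (0.60) and in DKO (0.58), leaving 1, 1 and 0 members called and 1 pathway gene in DKO, and the interaction of Nfil3 was -0.02. Over all genes the block gave 104 calls at CT4, 503 at CT16, 379 between times in control, 159 in DKO and 1 for the interaction, where the model without it gave 217, 788, 712, 304 and 2.

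With marker scores as covariates, Hlf at CT4 (0.52) and the interaction of Dbp (0.82) were called, Nfil3 between times in DKO (0.34) was not, and the interaction of Nfil3 was -0.31. Members called were 0 in DKO and 1 for the interaction, and pathway genes 8 in control, 1 in DKO and 1 for the interaction. Without the 3 libraries, Dbp at CT4 (0.86) was not called, Tef at CT4 (0.24), Hlf in DKO (0.58) and its interaction (0.82) were, with 2 and 1 members called, and pathway genes called were 2 in control, 8 in DKO and 6 for the interaction. Over all genes the covariates gave 1361 calls between times in control, 193 in DKO and 17 for the interaction. Leaving out the 3 libraries gave 609, 1184 and 423. The cause of these changes was not tested. With 1 library left out, calls over all genes were 16 to 328 for genotype at CT4, 380 to 1318 at CT16, 235 to 1057 between times in control, 103 to 1461 in DKO and 1 to 298 for the interaction. No setting moved the median of all genes by over 0.1.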
